A study of Bos taurus with 8 samples.

Results

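miR-143 and miR-145 were described in small-RNA libraries of extracellular vesicles (EVs) from bovine follicular fluid, as the 2 rows named bta-miR-143 and bta-miR-145 among 1028 miRNA rows. The rows were chosen by name, with earlier results of these data known. Both passed a mean of 10 CPM (counts scaled to the size of the library) over the libraries, as did 243 of the 1028 miRNAs, while 483 were at 0 in every library. Summer (SUM) and winter (WIN) were each represented by 4 libraries, made from pooled follicular fluid of 2 open Bos taurus crossbred beef cows per library. Cows of both seasons had received a progesterone device, a GnRH analog and FSH before ovum pick-up. Per the study's methods, ovum pick-up was done on the same cows in both seasons. Which of these cows entered the pools of each season is not stated. A pool is thus the unit of replication, and single cows cannot be told apart within it. The season groups differ in temperature, and also in anything else that differs between a winter and a summer collection.

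The values are TMM-adjusted CPM, in which the library size was itself scaled by the trimmed mean of M-values. Within a library, each value was a whole multiple of a single step, the worth of 1 read, so that the reads behind them could be recovered. The libraries held 214004 to 1689467 miRNA reads, and 1 read was worth 0.567 to 4.02 CPM. SUM replicate 3 (214004 reads) and WIN replicate 1 (235340 reads) were the shallowest. In bulk EV RNA, fewer vesicles of a kind and less of a miRNA per vesicle cannot be told apart.

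miR-143 and miR-145 are known as partners that are made from 1 primary transcript, from which each hairpin is cut separately. In mammals they are best known from smooth muscle cells, fibroblasts and other mesenchymal cells, where they favour the contractile state of smooth muscle. In the follicle, the mesenchymal layer is the theca, outside the basement membrane that encloses the granulosa cells and the fluid. In the RefSeq annotation of ARS-UCD2.0, MIR143 and MIR145 follow each other, both inside the long non-coding RNA gene LOC132345768, between IL17B (a cytokine) and CSNK1A1 (a casein kinase). This assembly is a later one than that used by the authors (ARS-UCD1.2), and it served only to see which genes are neighbours. Both miRNAs matched this annotation by name.

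The partners stood far apart in abundance. miR-143 was the fourth most abundant miRNA by its mean over the 8 libraries, at 47875 CPM, and miR-145 was at position 151, at 71.5 CPM. Over all libraries miR-143 had 288592 reads and miR-145 had 382 reads, a pooled ratio of 755 to 1.

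miR-143 had 37600.2, 55702, 48469 and 54171 CPM in SUM replicates 1 to 4, against 31772, 46604, 56679 and 52005 CPM in WIN replicates 1 to 4. The seasons overlapped, and replicate 1 was the lowest library in each of them. The highest library was 1.48-fold above the lowest in SUM and 1.78-fold in WIN. The position of miR-143 by abundance was 4 in all SUM libraries, and 6, 5, 4 and 5 in WIN replicates 1 to 4.

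Of all CPM summed over a library, miR-143 held 3.48%, 4.56%, 5.63% and 4.78% in SUM replicates 1 to 4 and 3.53%, 5.03%, 5.91% and 5.37% in WIN replicates 1 to 4. The widest 95% Wilson interval of these shares extended 0.098 percentage points to each side, in SUM replicate 3. The libraries thus differed by far more than counting error, while the seasons overlapped. The mean share differed by -0.35 points in SUM against WIN (exact permutation test over libraries, two-sided, p = 0.57). Without the 2 shallowest libraries, a setting added after seeing the data, it differed by -1.17 points and the 3 SUM shares lay below the 3 WIN shares (exact permutation test, p = 0.10, the smallest that 3 against 3 allow). The intervals cover counting error only, since reads without molecular identifiers are not independent molecules.

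miR-145 had 6.28, 35.8, 181 and 84.1 CPM in SUM replicates 1 to 4, against 42.1, 107.7, 66.4 and 48.5 CPM in WIN replicates 1 to 4. These values rest on 3, 26, 45 and 67 reads in SUM and on 11, 85, 117 and 28 reads in WIN. Both the lowest and the highest of all 8 libraries were SUM libraries, and all WIN libraries lay between them. The highest library was 28.8-fold above the lowest in SUM and 2.56-fold in WIN. The 3 reads of SUM replicate 1 give an exact 95% Poisson interval of 1.29 to 18.3 CPM, which lies below the intervals of all other libraries. The 45 reads of SUM replicate 3 give an interval of 132 to 242 CPM. It overlapped only that of WIN replicate 2, which reached from 86.0 to 133 CPM.

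The relation of the miR-145 level to depth was not tested. The shallowest library, SUM replicate 3, had the highest level, and SUM replicate 1, with 517138 miRNA reads, had the lowest. The share of miR-145 in the summed CPM was 0.00058%, 0.0029%, 0.021% and 0.0074% in SUM replicates 1 to 4, and 0.0047%, 0.012%, 0.0069% and 0.0050% in WIN replicates 1 to 4. Its position by abundance ranged from 106 to 265 in SUM and from 126 to 162 in WIN. The mean share was 0.0080% ± 0.0091 over the SUM pools and 0.0071% ± 0.0032 over the WIN pools (SD, n = 4 per season). It did not differ beyond the spread (two-sided exact permutation test, p = 0.89). The SD in SUM was larger than the mean itself.

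**Figure D1:**
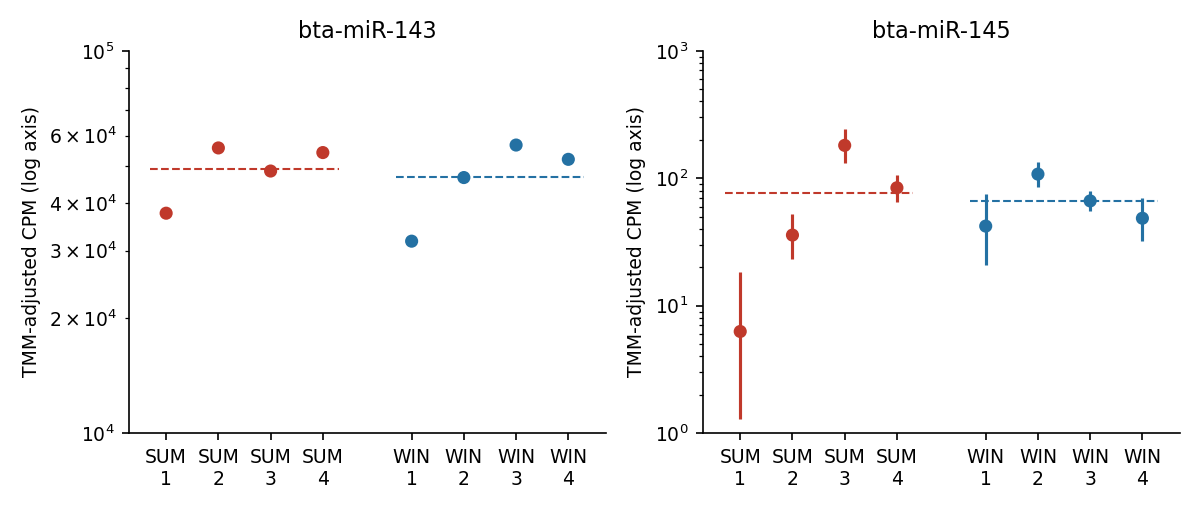
Level of bta-miR-143 (left) and bta-miR-145 (right) in each library, in TMM-adjusted CPM on log axes, with SUM libraries in red and WIN libraries in blue. Points are libraries, vertical lines are exact 95% Poisson intervals of the recovered reads (within the points for miR-143), and dashed lines are season means. miR-143 stayed between 31772 and 56679 CPM, while miR-145 ranged from 6.28 to 181 CPM, with both extremes in SUM.

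Neither partner was called between seasons. The seasons were compared with limma on log2(CPM + 1) across the 243 miRNAs, where a miRNA was called if the adjusted p was under 0.1 and it differed by more than 1.5-fold. By this rule 19 of 243 miRNAs (7.82%) were called in either direction, and 0 of the 2 members. At an unadjusted p below 0.05 in limma the count of members was also 0, against 22.2% of all 243. On the recovered reads, edgeR (14.4% of the 243 called), DESeq2 (18.5%) and voom (14.4%) called 0 members as well.

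miR-143 averaged 48986 ± 8203 CPM over the SUM pools and 46765 ± 10810 CPM over the WIN pools (SD, n = 4 per season). In limma, the log2 fold change of SUM over WIN was 0.08 with a standard error of 0.23 and a 95% interval of -0.43 to 0.59 (adjusted p = 0.89). This interval still holds changes slightly beyond the 1.5-fold threshold on the higher side. The sign changed when every library was scaled to the same sum (-0.10), a scaling that shifted the median of all tested miRNAs to -0.17, against 0.02 with the deposited scaling. Without WIN replicate 1 the log2 fold change was -0.09.

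miR-145 averaged 76.8 ± 76.5 CPM over the SUM pools and 66.2 ± 29.5 CPM over the WIN pools (SD, n = 4 per season). In limma, its log2 fold change of SUM over WIN was -0.48 with a standard error of 0.80 (adjusted p = 0.78), opposite in sign to the difference of the CPM means. The 95% interval of -2.23 to 1.28 leaves room for changes of more than 2-fold in either direction, so that a seasonal change of that size was not detectable with these libraries. With all libraries kept, the log2 fold change was 0.18 in edgeR, 0.24 in DESeq2 and -0.84 in voom. In limma the negative sign rested on SUM replicate 1, and without that library the log2 fold change was 0.40. Without SUM replicate 3 it was -1.15 (adjusted p = 0.35 from limma), and without both that library and WIN replicate 1 it was -1.33 (adjusted p = 0.25 from limma), which also missed the threshold.

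The number of miR-143 reads per miR-145 read does not depend on how a library was scaled. It was 5991, 1555, 268 and 644 in SUM replicates 1 to 4, and 754, 433, 854 and 1072 in WIN replicates 1 to 4. The SUM libraries again enclosed the WIN libraries on both sides. The ratio of SUM replicate 1 rests on 3 reads of miR-145, and its exact 95% interval of 2050 to 29052 does not reach that of any library but SUM replicate 2 (1061 to 2381). The interval of SUM replicate 3 (200.0 to 367) lay below those of all others except WIN replicate 2 (349.8 to 542). Read the other way, miR-145 made 0.167 to 3.73 reads per 1000 reads of miR-143 in SUM and 0.933 to 2.31 in WIN.

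On the log2 scale the ratio averaged 10.1 ± 1.91 over the SUM pools and 9.53 ± 0.56 over the WIN pools (SD, n = 4 per season). The difference of 0.61 was within the spread between libraries (exact permutation test, two-sided, p = 0.63). Without SUM replicate 1 the difference was -0.20 (exact permutation test, p = 0.80). Over all 8 libraries the mean log2 ratio was 9.83 ± 1.34 (SD), a geometric mean of 912 to 1.

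**Figure D2:**
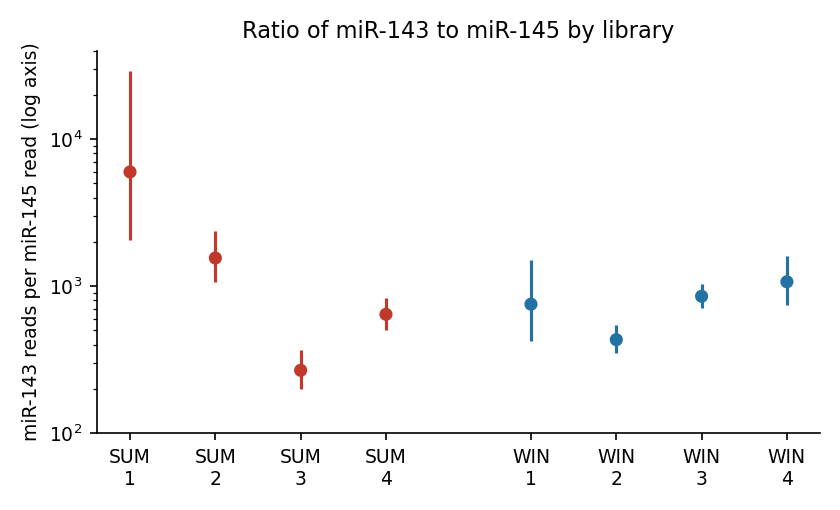
Reads of miR-143 per read of miR-145 in each library on a log axis, with SUM libraries in red and WIN libraries in blue. Points are libraries and vertical lines are exact 95% intervals from the reads of both miRNAs. The ratio was highest in SUM replicate 1 (5991) and lowest in SUM replicate 3 (268), and the 4 WIN libraries lay between 433 and 1072.

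To place this ratio, 34 listed pairs of miRNAs known from genomic clusters were considered, the miR-143 and miR-145 pair included. Of these, 31 were neighbours within 50000 bases in the RefSeq annotation of ARS-UCD2.0 and had both miRNAs above a mean of 10 CPM. The distance of miR-143 from miR-145 was the largest of the 31, at a mean log2 ratio of 9.83. This place holds only among pairs that passed the filter, which removes pairs with a very low partner. The neighbours miR-451 and miR-144 were left out by it, with means of 5303 and 2.84 CPM. Their means lay further apart than those of miR-143 and miR-145 (47875 and 71.5 CPM). No ratio was formed for them, and miR-144 was at 0 in several libraries. Unequal partners were common in these libraries. Among the other 30 pairs the median distance was 3.09 on the log2 scale, and the next largest were miR-25 over miR-106b at 6.79 and miR-27b over miR-23b-3p at 6.21. At the other end was miR-379 over miR-411a at 0.09. In single libraries these 2 were 0.35 apart on average, in either direction. The ratio compares the read counts of 2 different sequences. Some of the listed miRNAs matched several places in the annotation, such as miR-29b (3) and let-7a-5p (4). A pair counted as neighbours if any of these places were near each other. Such ratios can therefore include reads from places outside the cluster. miR-143 and miR-145 matched 1 place each.

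The miR-143 to miR-145 ratio also varied most between libraries of a season, with an SD of 1.41 on the log2 scale, against a median of 0.45 among the other 30 pairs (range 0.21 to 1.34). Next was miR-29a to miR-29b at 1.34, and miR-29b had a mean of 21.4 CPM. The first place in spread rested on 2 libraries, since without SUM replicate 1 (SD 0.91) or without SUM replicate 3 (SD 1.11) the pair came second to miR-29a and miR-29b. Among the 31 pairs that passed the filter, the first place in distance remained without any single library.

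**Figure D3:**
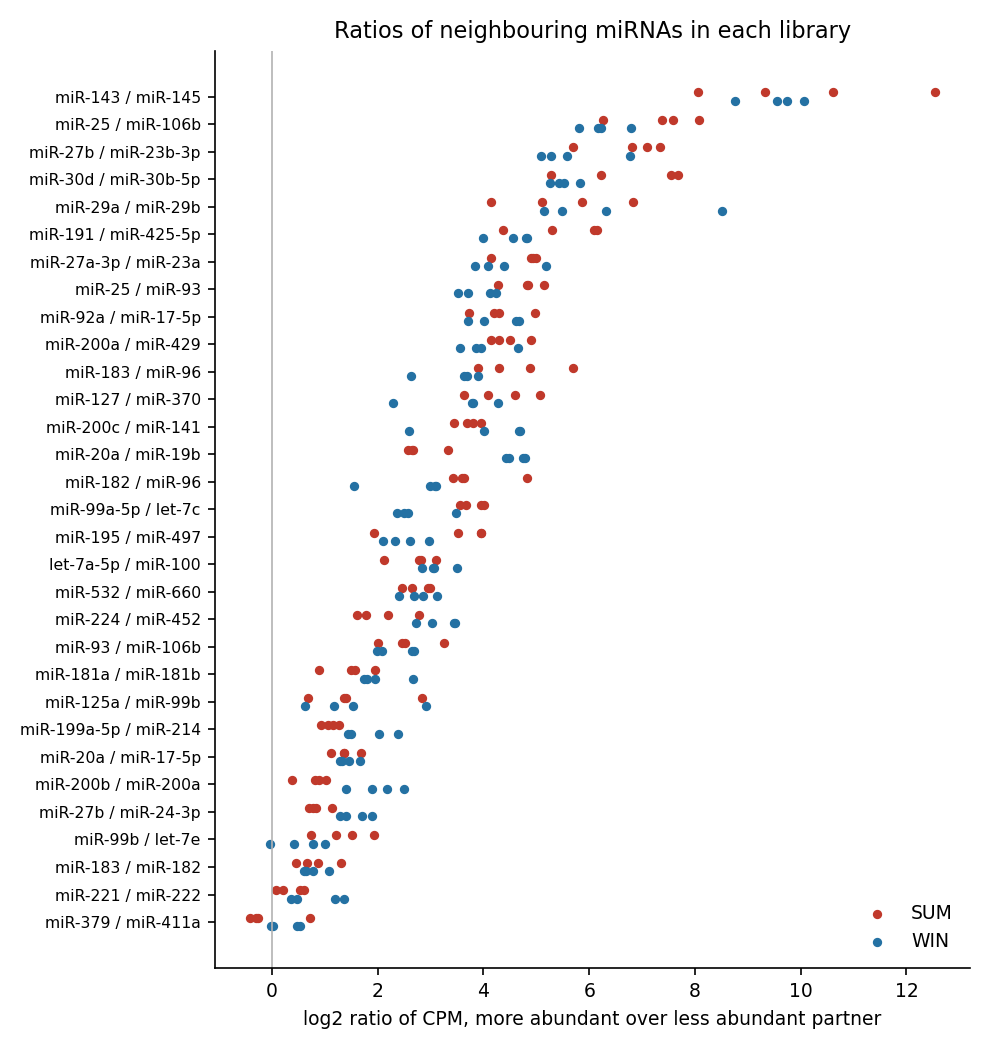
log2 ratio of CPM, more abundant over less abundant partner, for the 31 pairs of neighbouring miRNAs, ordered by the size of their mean log2 ratio. Points are libraries, SUM in red above WIN in blue. The miR-143 and miR-145 pair is at the top, with library values from 8.06 to 12.5, and the miR-379 and miR-411a pair is at the bottom, with values from -0.42 to 0.73.

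The spread of the ratio came with the spread of miR-145 itself. Between libraries of a season, log2(CPM + 1) of miR-145 had an SD of 1.47, which was at position 22 from the largest among the 243 miRNAs. Counting error alone gives about 0.38 for its reads. Of the 67 miRNAs with a mean CPM within 2-fold of miR-145, it had the second largest SD, and their median was 0.52. Within SUM the SD was 1.99 and within WIN 0.59. miR-143 had an SD of 0.32, at position 203, and was in the middle of the 20 most abundant miRNAs, whose median was 0.32. Counting error was 0.0099 for miR-143, far below its spread between libraries.

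**Figure D4:**
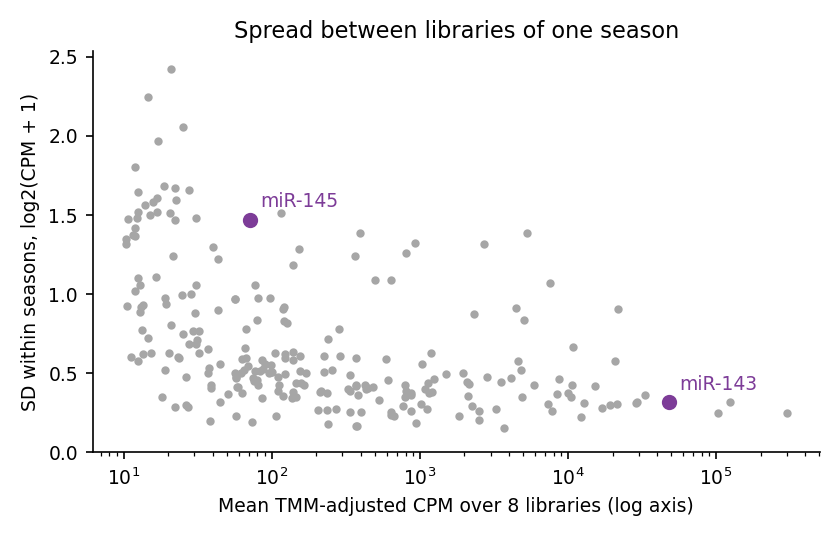
SD of log2(CPM + 1) between libraries of the same season, pooled over both seasons, against the mean CPM over the 8 libraries on a log axis, with the 243 tested miRNAs in grey. miR-145 stood at 1.47, above most miRNAs of similar abundance (median 0.52), and miR-143 stood at 0.32.

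The order of miR-143 among the most abundant miRNAs was firm towards the miRNAs above it. miR-99a-5p and miR-10b, both of the conserved miR-10 family, were higher than miR-143 in all 8 libraries. miR-99a-5p ranged from 117278 to 167714 CPM in the SUM pools and from 74039 to 140301 CPM in the WIN pools. miR-10b ranged from 97421 to 156333 CPM in the SUM pools and from 65972 to 80869 CPM in the WIN pools. Below it, let-7b was lower in all 8 libraries. miR-26a was lower in 6 of 8, so that its place next to miR-143 was not fixed. Around miR-145 there was no stable order. miR-145 was higher than miR-1388-5p in 4 of 8 libraries, and higher than miR-381, miR-210 (known as a hypoxia-induced miRNA) and miR-2419-5p in 3 of 8 each.

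The partners were not clearly related across libraries. For log2(CPM + 1) over the 8 libraries, Pearson's r was 0.43 (exact permutation test, p = 0.34) and Spearman's rho was 0.14 (exact permutation test, p = 0.75). Adjusted over these 2 measures of 1 relation the values were p = 0.67 and p = 0.75 in the same exact tests. Without the 2 libraries farthest from the median of miR-143, replicate 1 of each season, r was -0.70 (exact permutation test, p = 0.14, n = 6), so that the positive sign rested on them. With every library scaled to the same sum, r was 0.72 (exact permutation test, p = 0.053) and rho was 0.71 (exact permutation test, p = 0.058). Each season holds 4 libraries, too few for a correlation within it.

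The miRNAs most like each partner over the 8 libraries were different ones. For miR-143, the 5 highest values of Pearson's r on log2(CPM + 1) were 0.87 for miR-2285av, 0.86 for miR-592, 0.84 for miR-425-3p, 0.83 for miR-2284ab and 0.81 for miR-27b. WIN replicate 1 was the lowest library of all of them, and without it these values were 0.51 to 0.71. miR-592 had 35.6, 79.9, 48.3 and 42.7 CPM in SUM replicates 1 to 4, against 3.83, 27.9, 48.8 and 58.9 CPM in WIN replicates 1 to 4. miR-27b, of the cluster with miR-23b and miR-24, had 9415, 13775, 9767 and 16119.6 CPM in SUM replicates 1 to 4, against 6027, 8553, 13412 and 8572 CPM in WIN replicates 1 to 4. miR-145 was at position 59 of 242 in likeness to miR-143.

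For miR-145 the most alike was miR-21-5p, a miRNA raised in many growing and stressed tissues, at r = 0.90 over the 8 libraries. miR-21-5p had 9396, 14075, 24659 and 15021 CPM in SUM replicates 1 to 4, against 12344, 15322, 15073 and 15652 CPM in WIN replicates 1 to 4. As with miR-145, its lowest and highest libraries were SUM replicates 1 and 3. Leaving out any single library gave r of 0.83 to 0.92 for this pair. The next were miR-339a (0.84), miR-455-3p (0.79), miR-423-5p (0.77) and miR-181d (0.74), and without SUM replicate 1 miR-339a was at 0.44 and miR-423-5p at 0.24. For both partners, the miRNAs named were picked as the highest of 242 values of r in these same libraries. High top values over 8 libraries can arise by chance, and leaving out libraries does not test a pair picked in this way. All points share library, depth and scaling, and the values of r are given as a description of these 8 libraries.

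Other miRNAs known from mesenchymal or smooth muscle cells were present next to the pair. Of 9 tested list members other than miR-143 and miR-145, 0 were higher in SUM, 1 was lower and 8 did not pass, with a median log2 fold change of -0.28 (0.02 over all 243 miRNAs, of which 5.35% were called higher and 2.47% lower). A further listed miRNA, miR-490, stayed below the filter. The member that fell was miR-199b, of the miR-199 and miR-214 group of mesenchymal cells. It had 41.8, 31.7, 44.2 and 27.6 CPM in SUM replicates 1 to 4, against 84.2, 191, 85.7 and 132 CPM in WIN replicates 1 to 4, without overlap, as for 16.0% of the 243 miRNAs. In limma, it had a log2 fold change of -1.67 with a standard error of 0.35 (adjusted p = 0.058), and the call ended without SUM replicate 2 (adjusted p = 0.15), SUM replicate 4 (0.12), WIN replicate 2 (0.16) or WIN replicate 4 (0.101).

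Near-identical miR-199 rows may share reads in the counting, and miR-199a-3p, miR-199a-5p and miR-214 were not called. miR-199a-3p had 1356, 1362, 1488 and 1551 CPM in SUM replicates 1 to 4, against 701, 1980.5, 1726 and 1776 CPM in WIN replicates 1 to 4. The seasons overlapped, and WIN replicate 1 was the lowest library, as it was for miR-143. Of the abundant list members, miR-100 averaged 3265 ± 295 CPM over the SUM pools and 4090.2 ± 522 CPM over the WIN pools (SD, n = 4 per season). miR-125b averaged 2138 ± 483 CPM over the SUM pools and 2340.2 ± 403 CPM over the WIN pools. Neither was called (adjusted p = 0.36 and 0.79 from limma). As with miR-199b, the seasons did not overlap for miR-100, at 2905 to 3603 CPM in SUM and 3741 to 4863 CPM in WIN. The same held for miR-199c, at 16.1 to 36.4 CPM in SUM and 42.1 to 69.7 CPM in WIN, which was not called (adjusted p = 0.18 from limma). Of all 243 miRNAs, 16.0% were without overlap.

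**Figure D5:**
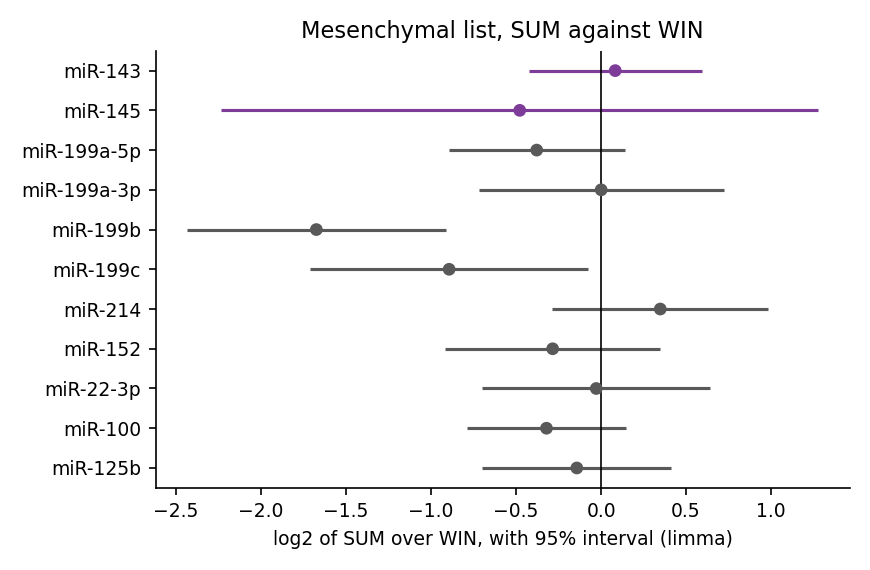
log2 fold change of SUM over WIN with its 95% interval from limma, for miR-143 and miR-145 (purple) and the other tested members of the mesenchymal list (grey). The interval of miR-143 (-0.43 to 0.59) was narrow and that of miR-145 (-2.23 to 1.28) was the widest of the list. miR-199b, at -1.67, was the member called.

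Markers of other cells were found in the same libraries, so the levels above do not identify the cells that released the vesicles. The library with the lowest miR-143, WIN replicate 1, had the highest sums of the red blood cell list (25918 CPM for 3 miRNAs, against 5262 to 12731 CPM in the SUM pools and from 2439 CPM upward in the WIN pools) and of liver miR-122 (16943 CPM, against 2730.3 to 3842 CPM in the SUM pools). Without WIN replicate 1 the season difference of miR-143 was still below any call, as given above, and the part of these miRNAs in its level was not tested. Of all 243 miRNAs, 5.35% were called higher in SUM and 2.47% lower, and no test of a list was run on the counts that follow. The endothelial list (2 miRNAs) summed to 1065 to 2418 CPM in the SUM pools and 2290 to 3595 CPM in the WIN pools. Of its members, 1 of 2 was called lower in SUM, miR-126-3p with a log2 fold change of -1.02 (adjusted p = 0.094 from limma). The other, miR-126-5p, had a log2 fold change of 0.12 and was not called (adjusted p = 0.90 from limma). The epithelial list (6 miRNAs) summed to 5868 to 14531 CPM in the SUM pools and 4377 to 9359 CPM in the WIN pools, and 1 of 6 was higher, miR-200a at 1.36 (adjusted p = 0.062). The white blood cell list (6 miRNAs) summed to 796 to 1233 CPM in the SUM pools and 724 to 855 CPM in the WIN pools, and 1 of 4 tested was higher, miR-142-5p at 1.13 (adjusted p = 0.062). Each of these 3 calls ended without SUM replicate 2 or 4 or WIN replicate 2, 3 or 4, and that of miR-126-3p also without SUM replicate 1 (adjusted p of 0.101 to 0.198 from limma). The call of miR-126-3p also ended with no filter (adjusted p = 0.13), in limma without trend (adjusted p = 0.15) and in edgeR (adjusted p = 0.12).

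The list of granulosa or follicle miRNAs (8 miRNAs, led by miR-202) summed to 6991 to 14115 CPM in the SUM pools and 4729 to 7267 CPM in the WIN pools, and none of 6 tested was called. The seasons did not overlap for miR-202, at 5628 to 11850 CPM in SUM and 3086 to 5539 CPM in WIN. Its log2 fold change was 0.87 (adjusted p = 0.115 from limma). The other tested members of this list overlapped, and 16.0% of all 243 miRNAs were without overlap. The striated muscle list (7 miRNAs, led by miR-1) summed to 837 to 1021 CPM in the SUM pools and 1095 to 1482 CPM in the WIN pools, with miR-133b, miR-208a and miR-208b at 0 in every library (a count of 0 allows up to 3 reads in each), and none of 3 tested was called. None of the 2 tested red blood cell miRNAs was called, nor was miR-122. In SUM replicate 1, where miR-145 was lowest, red blood cell miR-486 was at its highest, at 8251 CPM. It had 2217 to 6983 CPM in the other SUM pools and 1394 to 7145 CPM in the WIN pools. By contrast, miR-451 of the same list was not at its highest there, at 4002 CPM. miR-451 had 2452 to 5748 CPM in the other SUM pools and 1031 to 18773 CPM in the WIN pools. The part of red blood cell miRNAs in the miR-145 level was not tested.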

How the data were processed

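Per the study's methods, the authors trimmed the EV small-RNA reads, aligned them to ARS-UCD1.2 and took miRNA names from miRBase in CLC Genomics Workbench. The submitters' processing notes name bcl2fastq, Bowtie2 2.2.2 and DESeq2. The deposited values are a signal per mature miRNA, TMM-adjusted CPM, whose columns sum to 860872 to 1222033 because the authors scaled the library sizes. Dividing by the smallest value above 0 of a library gave whole reads for 100% of values within 0.001.

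Seasons were compared with limma 3.58.1 (R 4.3.3, trended variance, pseudocount 1, no block), and p-values were Benjamini-Hochberg adjusted over the 243 miRNAs whose mean passed 10 CPM. For shares and ratios, two-sided exact permutation tests had 35 splits and a smallest p of 0.029. Alternatives were other pseudocounts, filters and scalings, limma without trend, a stricter threshold, a replicate block, leaving out each library, and edgeR 4.0.16, DESeq2 1.42.0 or voom with the recovered reads. Leaving out the 2 shallowest libraries and the alternatives for correlations were added after seeing the data. Fits were also run on simulated data with the same spread beyond counting for every miRNA, and no result above rests on them. Python 3.11.15 with numpy 2.4.6, pandas 2.3.3, scipy 1.17.1 and matplotlib 3.10.9 served for the rest.

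The members, the 8 cell lists (mesenchymal or smooth muscle, endothelial, epithelial, red blood cell, white blood cell, granulosa or follicle, striated muscle, liver) and the cluster pairs were chosen with earlier results of these data known. Named were the members, the 5 miRNAs most like each, the 2 next above and below each by mean CPM, list members that were called or else up to 3 of the most abundant, and both miRNAs of a pair given with a value. Further list members, miR-125a and miR-181b were named after their values were seen. Of the 34 pairs, miR-30a-5p and miR-30c were not neighbours, and 2 pairs had a member under the filter or not in the table. The same cows were sampled in summer and winter, and how the pools correspond is not given in the sources used here, so p-values measure only the spread between these pools.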

Additional observations from a re-analysis of the deposited data

Results flagged for a closer look

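Of 116 season groups of 4 libraries checked, covering 55 miRNAs and the shares and ratios of the pair, 5 held a library that stood far from the other 3 of its season. Chance alone flags about 1 in 20 groups. No flag fell on miR-143, miR-145 or their ratio. In WIN replicate 1, which also had the lowest miR-143 level, miR-122 was at 16943 CPM, miR-125a at 14638 CPM and miR-141 at 203 CPM, each above the other WIN libraries. In SUM replicate 1, the library with the lowest miR-145 level, miR-126-5p was at 27.2 CPM, below the other SUM libraries. In WIN replicate 2, miR-199c was at 69.7 CPM, above the other WIN libraries.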

How the results depend on the processing

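Neither miR-143 nor miR-145 was called in any of the 21 fits run for each. Their sign was not stable. miR-143 (0.08) was at -0.10 after rescaling to equal summed CPM, at -0.092 without the 2 shallowest libraries and at -0.092 (without WIN replicate 1) to 0.21 when each library was left out. miR-145 (-0.48) was at 0.18 in edgeR, at 0.24 in DESeq2, at -0.84 in voom, at -1.33 without the 2 shallowest libraries and at -1.15 to 0.40 when each library was left out. The share of miR-143 (a difference of -0.35 points) was at 0.22 points as a percent of 1000000 CPM, at -1.17 points without the 2 shallowest libraries and at -0.83 to 0.029 (without SUM replicate 1) with each library left out. That of miR-145 (0.00093 points) was at -0.0042 without the 2 shallowest libraries and at -0.0034 to 0.0034 with each library left out. The log2 ratio (0.61) gave 1.31 without the 2 shallowest libraries and -0.20 to 1.30 with each library left out, and the correlation of the pair (0.43) gave -0.70 without the 2 libraries farthest from the median. The causes were not tested.

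The number of miRNAs called (19, with 13 higher and 6 lower) was 8 without the filter, 33 after rescaling to equal summed CPM (11 higher, 22 lower), 35 with median-ratio scaling, edgeR, voom or without the 2 shallowest libraries, 45 with DESeq2 (23 higher, 22 lower), 1 at an adjusted p below 0.05 and 0 to 30 with each library left out, of which it was 30 without SUM replicate 3, 5 without WIN replicate 3 and 0 to 2 without SUM replicate 2 or 4 or WIN replicate 2 or 4. With median-ratio scaling, edgeR and voom the split was 20 higher and 15 lower. Called list members (4) were 8 with DESeq2, 7 without the 2 shallowest libraries, 0 at the stricter threshold and 0 to 5 with each library left out, with 1 without WIN replicate 3 and 0 without SUM replicate 2 or 4 or WIN replicate 2 or 4.

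Seasons share replicate numbers in the labels, but nothing says that a number marks the same cows. Same-numbered libraries correlated by -0.02, 0.30, 0.06 and 0.24 in their deviations from the season means, and not every library correlated best with its own number. With the replicate block the calls were 25 (15 higher, 10 lower), miR-143 stayed at 0.08 (adjusted p = 0.85 from limma) and miR-145 at -0.48 (adjusted p = 0.68). In the paired sign-flip test the share of miR-143 was lower in SUM in 4 of 4 same-numbered pairs (exact p = 0.125, the smallest that 4 pairs allow), and the share of miR-145 (exact p = 0.88) and the log2 ratio (exact p = 0.63) kept their values. For miR-145, 3 to 117 reads per library limit what can be seen.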

Other observations

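The miRNA least like miR-145 over the 8 libraries was miR-125a (Pearson's r = -0.85, given as a description). It had 17877, 7334, 2229 and 4543 CPM in SUM replicates 1 to 4, against 14638, 5573, 4053 and 4633 CPM in WIN replicates 1 to 4. Its highest and lowest libraries, SUM replicates 1 and 3, were the lowest and highest of miR-145. With each library left out, r ranged from -0.94 to -0.76, which is no test of a pair picked as the lowest of 242 values. For miR-143 the least alike was miR-181b (r = -0.80), at 60.7, 35.8, 44.2 and 49.0 CPM in SUM replicates 1 to 4 and 103, 79.8, 49.4 and 53.7 CPM in WIN replicates 1 to 4, and r was -0.34 after rescaling to equal summed CPM. miR-181b shares its sequence in large part with the other miR-181 rows, so that its reads could be split between them.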
